A study of Mus musculus with 24 samples.

Results

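Lyl1 and 5 further transcription factor genes of the myeloid lineage, Spi1, Cebpa, Cebpb, Runx1 and Klf4, were followed in alveolar macrophages given IL-13, IL-33 and IL-17A. The 6 genes were found by symbol among 17017 genes, with 1 row each, and all 6 were among the 13215 genes that reached 1 TPM in at least 3 libraries and were tested. Lyl1 was chosen by measured values, its much lower TPM with IL-13 in these same libraries, so every comparison of its levels is described below with no test. TPM is the deposited expression value, scaled to the same total in every library, and it compares libraries for a gene, not genes with each other, because the length behind it is the whole gene span.

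The cells were primary alveolar macrophages, the phagocytes that live in the air spaces, from WT mice of the strain BALB/cJ. The 8 groups had 3 libraries each: untreated, rIL-13, rIL-33, rIL-17A, rIL-13/rIL-17A, rIL-33/rIL-13, rIL-33/rIL-17A and rIL-33/rIL-13/rIL-17A, where r marks a recombinant cytokine, all 20 h post-stimulation. They are named below without the r, and the last is called the triple combination. The labels tie no library to an animal or a culture. A p-value here thus sets a group difference against the spread of these libraries, and that spread may be technical.

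Libraries held 9.13 to 12.89 M reads recovered from the TPM values. Of 14 alveolar macrophage markers 13 were tested. In the mean IL-13 difference over 3 backgrounds (IL-17A, IL-33 and both) 7 were called higher and 6 lower, beside 17.4% and 28.3% of all tested genes. The summed level of the 14 markers ran from 15667 to 16787 TPM in the 12 libraries without IL-13. In the 12 with it the sum ran from 20759 to 23263 TPM. Within that sum Chil3 stood at 382 TPM untreated and 5167 TPM with IL-13 and Ear2 at 687 and 4191 TPM, while Siglecf stood at 531 and 303 TPM and Fabp5 at 2116 and 1499.8 TPM. The marker Marco was under 1 TPM in every library. On the second principal component (8.89% of the variance) untreated replicate 1, IL-17A replicate 2 and replicate 2 of the triple combination stood apart, at 22.3, 20.3 and 43.3, where the other 21 lay between -15.6 and 4.42.

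Macrophage identity is set by a small set of transcription factors that act together. PU.1, the product of Spi1, opens myeloid enhancers, where C/EBP alpha and C/EBP beta (Cebpa, Cebpb) and RUNX1 bind beside it. LYL1 is a basic helix-loop-helix factor, a close relative of TAL1, that pairs with E proteins and joins LMO2 and LDB1 in complexes of blood stem and progenitor cells. KLF4 is a zinc finger factor of monocytes, and in macrophages it is known as a partner of STAT6, the factor that IL-4 and IL-13 activate.

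The stretches upstream of 3 of the genes are shown first, so that a reader can see the DNA in front of them. They are the gene furthest lower with IL-13 by fold (Lyl1) and the pair furthest higher (Klf4, Cebpb). They were chosen with the values known. Each is the 250 bases before the RefSeq start on GRCm38.p6, the assembly of mm10, read 5′ to 3′ in the direction of the gene. The Lyl1 window is chr8:84701207-84701456 on the plus strand, the Klf4 window chr4:55532476-55532725 on the minus strand and the Cebpb window chr2:167688665-167688914 on the plus strand.
Lyl1: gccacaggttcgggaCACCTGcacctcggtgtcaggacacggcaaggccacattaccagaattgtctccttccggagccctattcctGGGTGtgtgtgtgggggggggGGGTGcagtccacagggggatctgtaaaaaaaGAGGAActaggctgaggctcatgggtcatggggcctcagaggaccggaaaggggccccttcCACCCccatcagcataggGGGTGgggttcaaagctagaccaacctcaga
Klf4: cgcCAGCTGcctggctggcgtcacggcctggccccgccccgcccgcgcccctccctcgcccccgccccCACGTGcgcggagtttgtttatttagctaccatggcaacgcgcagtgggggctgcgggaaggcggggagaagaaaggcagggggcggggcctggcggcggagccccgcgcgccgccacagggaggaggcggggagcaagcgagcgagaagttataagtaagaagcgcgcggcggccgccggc
Cebpb: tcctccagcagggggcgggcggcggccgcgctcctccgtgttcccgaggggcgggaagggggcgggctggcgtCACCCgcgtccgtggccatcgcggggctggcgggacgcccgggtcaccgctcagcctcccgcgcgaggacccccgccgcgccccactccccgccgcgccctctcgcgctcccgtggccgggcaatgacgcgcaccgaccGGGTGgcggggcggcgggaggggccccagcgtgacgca
Capitals mark matches to any of 9 short motifs on either strand: a STAT6 motif (TTC and GAA with 4 bases of any kind between them), the PU.1 core GAGGAA, the motif of the erythroid GATA factors in the form AGATAA, the E-box CANNTG of basic helix-loop-helix factors, the CACCC box of Kruppel-like factors, spelled as in its name, a STAT motif with 3 free bases in place of 4, a C/EBP motif (TTGC and AA with 2 bases of any kind between them), the RUNX motif TGTGGT and the TATA box as TATAAA. No match in these 3 windows overlapped another.

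The Lyl1 window held 1 PU.1 match, 110 to 105 bases before the start, 1 E-box (CACCTG, 235 to 230 bases before it) and 4 CACCC boxes. The Klf4 window held 2 E-boxes, CAGCTG and CACGTG, and the Cebpb window 2 CACCC boxes. Cebpa had 1 window with 1 CACCC box and 1 TATA box, 30 to 25 bases before the start. Runx1 had 2 windows, one with 1 PU.1 match and 2 CACCC boxes and one with 3 E-boxes. No window of these 5 genes held the letters of STAT6, the shorter STAT motif, GATA, C/EBP or RUNX, and Spi1 was not matched. Of 32851 windows of the same length, 23.3% held the PU.1 letters, 66.2% an E-box, 52% a CACCC box, 9.99% the GATA letters and 5.85% the STAT6 letters. The shorter STAT motif was in 7.02%, the C/EBP motif in 9.56%, the RUNX motif in 14% and the TATA box in 12.4%. A match is a run of letters and not a bound site, and a missing one says only that the letters are not in that window.

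Lyl1 (ENSMUSG00000034041) is a protein-coding gene at chr8:84701449-84704940 on the plus strand. It stood at 43.0, 49.3 and 41.6 TPM in the untreated libraries, at 38.0, 33.1 and 47.0 TPM with IL-33 and at 42.5, 41.4 and 42.2 TPM with IL-17A. With IL-33 and IL-17A together it stood at 40.7, 41.9 and 34.9 TPM. The 12 libraries without IL-13 overlapped from group to group, and none was under 33.1 TPM.

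With IL-13 alone the values were 6.12, 6.61 and 6.41 TPM, and with IL-13 and IL-17A 5.45, 6.73 and 6.72 TPM. With IL-33 and IL-13 they were 9.69, 12.04 and 8.56 TPM, and in the triple combination 10.4, 9.36 and 11.3 TPM. No library with IL-13 was above 12.04 TPM, so the 12 libraries with IL-13 and the 12 without did not overlap. The 6 libraries with IL-13 but no IL-33 all lay below the 6 that had both. The plot of Lyl1 by group shows these 3 levels.

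**Figure D1:**
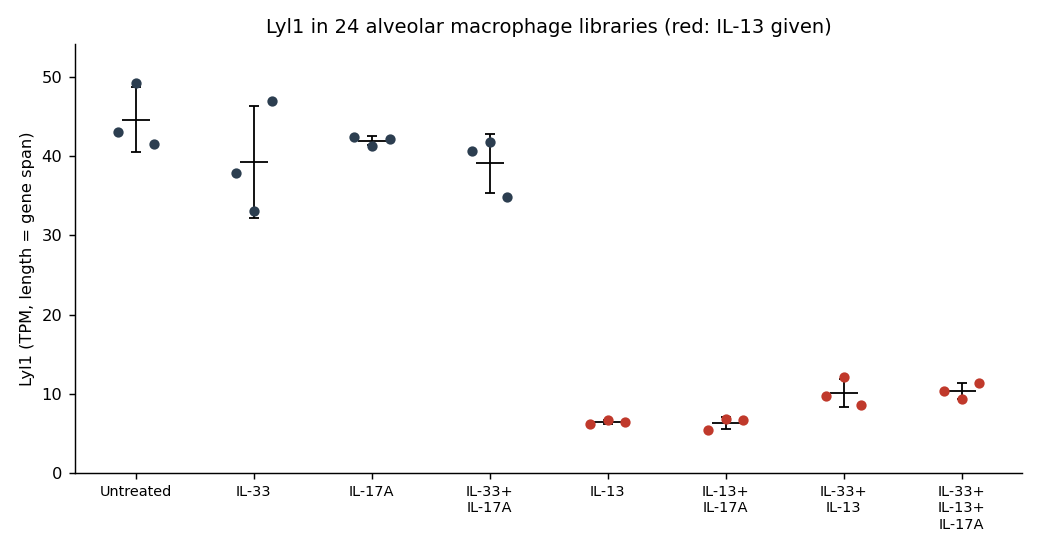
Lyl1 expression in TPM (vertical axis, from 0) in the 8 treatment groups (horizontal axis), 1 point per library, with the group mean and SD (n = 3) in black and groups with IL-13 in red. The 12 libraries without IL-13 lie between 33.1 and 49.3 TPM, the 6 with IL-13 but no IL-33 between 5.45 and 6.73 TPM and the 6 with both between 8.56 and 12.04 TPM.

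Group means of Lyl1 were 44.6 ± 4.10 TPM untreated, 39.3 ± 7.07 with IL-33, 42.0 ± 0.576 with IL-17A and 39.1 ± 3.73 with both (SD, n = 3 each, here and below). With IL-13 they were 6.38 ± 0.247 alone, 6.30 ± 0.735 beside IL-17A, 10.1 ± 1.78 beside IL-33 and 10.3 ± 0.971 in the triple combination. Means with IL-13 were thus 6.995-fold lower than in untreated cells, 6.67-fold lower with IL-17A on both sides, 3.90-fold with IL-33 on both sides and 3.79-fold with IL-33 and IL-17A. On the log2(TPM + 1) scale the differences were -2.63, -2.56, -1.86 and -1.82 (SE 0.12 each). In bulk RNA such a difference does not tell fewer cells of a type from less RNA per cell. No test is given for it, since it chose the gene. The counts behind it were 464 recovered reads over the 3 untreated libraries and 71 over the 3 with IL-13, with exact Poisson 95% intervals of 423 to 508 and 55.5 to 89.6 that cover counting error only.

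IL-33 was compared on each background, a comparison that asks whether it alters Lyl1 with and without IL-13. Added to IL-13 it went with a Lyl1 mean 1.58-fold higher (0.58 on the log2(TPM + 1) scale, SE 0.12), with no overlap between the groups. Added to IL-13 and IL-17A it went with a Lyl1 mean 1.64-fold higher (0.64, SE 0.12), and all 3 libraries of the triple combination were above all 3 with IL-13 and IL-17A. Both are descriptions, because the low values with IL-13 served to choose the gene.

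Without IL-13, Lyl1 differed by -0.19 (SE 0.12) between IL-33 and untreated cells and by -0.10 (SE 0.12) when IL-33 was added to IL-17A, and the groups overlapped in both. The IL-33 differences with and without IL-13 were thus 0.74 apart on the log2(TPM + 1) scale where IL-17A was present and 0.77 apart where it was absent (SE 0.17 each), with no test of either.

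The Lyl1 difference with IL-17A was -0.08 against untreated cells, -0.02 beside IL-13, 0.0037 beside IL-33 (95% interval -0.25 to 0.26) and 0.04 beside IL-33 and IL-13 (-0.21 to 0.29). The groups overlapped in all 4 comparisons. The IL-13 differences of Lyl1 with and without IL-17A were 0.06 apart (SE 0.17).

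Cells of another kind were looked for beside this pattern. Of 7 granulocyte markers 3 were analysed here (S100a8, Cxcr2 and Csf3r), and S100a9, Ly6g, Mpo and Elane had no deposited value. All 3 were called lower in the mean IL-13 difference over the 3 backgrounds, beside 28.3% of all tested genes. The summed level of these 3 markers, most of it S100a8, ran from 136 to 177 TPM in the 12 libraries without IL-13. In the 12 with it the sum ran from 67.3 to 127 TPM. The chemokine receptor gene Cxcr2 stood at 9.20 ± 1.23 TPM untreated, 1.49 ± 0.471 with IL-13, 1.36 ± 0.825 with IL-13 and IL-17A, 2.61 ± 0.619 with IL-33 and IL-13 and 2.87 ± 0.0849 in the triple combination. Like those of Lyl1, its means with IL-33 and IL-13 lay above those with IL-13 and no IL-33. S100a8, which encodes a calcium-binding protein of neutrophils, stood at 139 ± 14.8, 84.1 ± 7.96, 85.7 ± 3.74, 85.7 ± 21.3 and 109.9 ± 17.4 TPM in those groups. Erythroid and megakaryocyte markers summed to 16.6 to 23.8 TPM without and 22.6 to 51.1 TPM with IL-13. Of 3 tested, Pf4 alone was called higher and none lower. Pf4 stood at 4.63 ± 2.30 TPM untreated and 37.34 ± 3.80 TPM with IL-13 alone. The means of Epor and Klf1 went the other way. Epor stood at 15.05 ± 0.591 and 10.72 ± 1.47 TPM in these groups and Klf1 at 0.908 ± 0.335 and 0.469 ± 0.173 TPM. The 2 progenitor markers Cd34 and Meis1 summed to at most 0.677 TPM in any library. TPM here is scaled by the gene span, so a low sum does not show that these genes had few reads. All 3 epithelial markers tested (Epcam, Hopx and Scgb1a1) were called lower in the same mean difference, beside the same 28.3%. The epithelial list summed to 15.4 to 17.6 TPM without and 8.01 to 11.7 TPM with IL-13, with no overlap. Hopx held the largest part of that sum, at a mean of 9.93 TPM. Sftpc, Sftpb and Krt18 of that list had no deposited value, and Krt8 was under 1 TPM in every library. Of the fibroblast markers Pdgfra alone was tested and was called lower in that mean difference. Its level was 5.24 ± 0.938 TPM untreated and 2.32 ± 0.329 TPM with IL-13 alone. Col1a1 and Dcn were under 1 TPM in every library. Vwf of the endothelial, Clec9a of the dendritic cell and Ccr2 of the monocyte markers were each the 1 tested of their list and were not called. The part of these cells in the Lyl1 values was not tested.

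The 5 other factors were compared with and without IL-13 in 3 backgrounds, IL-17A, IL-33 and both, which share no library with the comparison of IL-13 with untreated cells. In the mean of the 3 (9 libraries against 9) Klf4, Cebpb, Runx1 and Spi1 rose and Cebpa fell, so all 5 were called. Of all tested genes 45.8% were called there, 17.4% higher and 28.3% lower, and with median-ratio scaling 3131 genes were higher and 3021 lower in place of 2303 and 3746. With a change of at least 2-fold, 1.99% were called, and of the 5 factors Klf4 alone was among them. The numbers of the 5 called in the single backgrounds were 5 with IL-17A, where 29.8% of genes were called, 3 with IL-33 (23.9%) and 4 with both (32.7%). The 5 factors were chosen with earlier results of these data known.

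**Figure D2:**
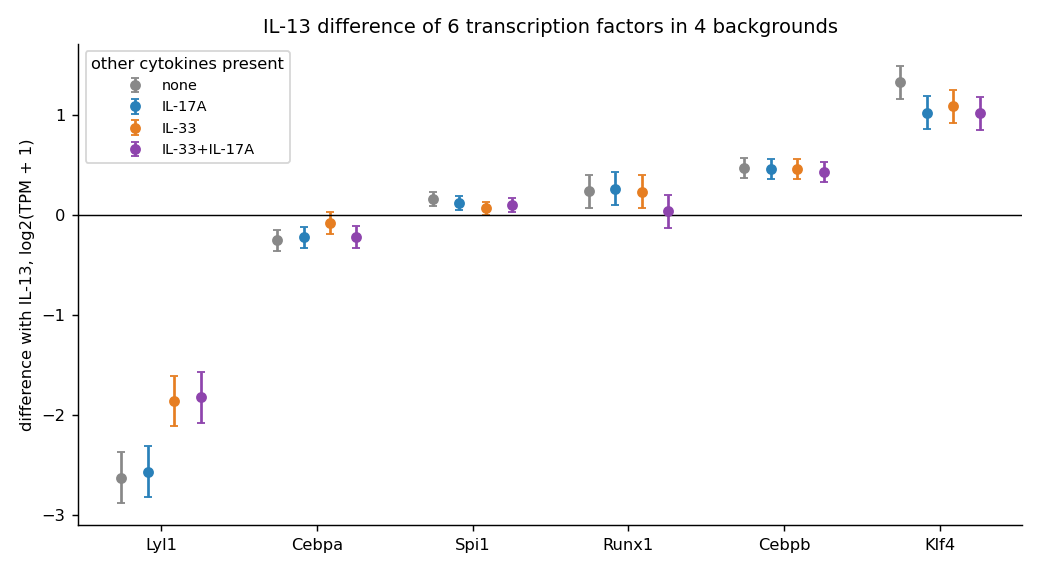
Difference with IL-13 on the log2(TPM + 1) scale (vertical axis) for the 6 factors (horizontal axis) in 4 backgrounds (colours), with 95% intervals from the limma fit of all 24 libraries. Lyl1 lies between -2.63 and -1.82 and Klf4 between 1.02 and 1.32, while Cebpb keeps to 0.43 to 0.47 and Cebpa, Spi1 and Runx1 lie within 0.26 of 0. The Lyl1 intervals describe spread and are no test, since the gene was chosen for its lower values with IL-13.

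Klf4 (ENSMUSG00000003032, chr4:55527143-55532466, minus strand) stood at 28.4, 31.4 and 34.3 TPM untreated and at 77.9, 86.0 and 75.7 TPM with IL-13. With IL-17A it stood at 37.6, 35.1 and 36.9 TPM, and with IL-13 and IL-17A at 73.8, 73.9 and 77.5 TPM. With IL-33 the values were 36.2, 32.5 and 38.0 TPM, and with IL-33 and IL-13 79.5, 79.6 and 70.2 TPM. Every library with IL-13 was thus far above every library without it. With IL-33 and IL-17A Klf4 stood at 32.5, 34.6 and 33.8 TPM, and in the triple combination at 72.2, 61.2 and 74.6 TPM, where the lowest value was that of the library that stood furthest apart.

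The Klf4 mean was 2.55-fold higher with IL-13 than in untreated cells, described with no test like every member in that comparison. It rose 2.05-fold with IL-17A on both sides (limma adjusted p = 6.66e-09), 2.15-fold with IL-33 (adjusted p = 3.59e-09) and 2.06-fold with both (adjusted p = 8.73e-09). The mean of these 3 differences was 1.04 on the log2(TPM + 1) scale (SE 0.045, limma adjusted p = 4.93e-13). The interaction of IL-13 with IL-17A was -0.30 for Klf4 (SE 0.11, limma adjusted p = 0.9999, unadjusted p = 0.0134) and that with IL-33 -0.24 (adjusted p = 0.509), and neither was called.

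Cebpb (ENSMUSG00000056501, chr2:167688915-167690418, plus strand) encodes the C/EBP of stimulated macrophages. It stood at 3607, 3634 and 3757 TPM untreated and at 5002, 5038 and 5156 TPM with IL-13. With IL-17A it had 3736, 3768 and 3443 TPM and with IL-13 and IL-17A 5174, 4862 and 5028 TPM. With IL-33 it had 3673, 3679 and 3687 TPM and with IL-33 and IL-13 4904, 5464 and 4787 TPM. The values with IL-33 and IL-17A were 3927, 3698 and 3618 TPM, and those of the triple combination 5089, 5280 and 4749 TPM. The 12 libraries with IL-13 did not overlap the 12 without.

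The Cebpb mean was 1.38-fold higher with IL-13 than untreated, and Cebpb rose 1.38-fold with IL-17A on both sides, 1.37-fold with IL-33 and 1.34-fold with both (limma adjusted p = 2.98e-07, 4.95e-07 and 1.04e-06). The mean difference was 0.45 (SE 0.027, limma adjusted p = 7.31e-11). On the log2(TPM + 1) scale the 4 Cebpb differences lay between 0.43 and 0.47, the narrowest span of the 6 factors.

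Cebpa (ENSMUSG00000034957, chr7:35119293-35121928, plus strand) encodes the C/EBP that drives myeloid commitment. It stood at 2458, 2633 and 2729 TPM untreated and at 2201, 2219 and 2121 TPM with IL-13. With IL-17A it had 2747, 2556 and 2446 TPM and with IL-13 and IL-17A 2205, 2183 and 2228 TPM. These pairs of groups did not overlap. With IL-33 it had 2427, 2562 and 2538 TPM and with IL-33 and IL-13 2274, 2522 and 2323 TPM, which overlapped. With IL-33 and IL-17A it had 2621, 2594 and 2699 TPM and in the triple combination 2405, 2095 and 2302 TPM, with no overlap.

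Cebpa thus fell where Cebpb rose. The ratio of means was 0.836 against untreated cells, 0.854 with IL-17A on both sides (limma adjusted p = 0.00193), 0.946 with IL-33 (adjusted p = 0.293, not called) and 0.859 with both (adjusted p = 0.00254). The mean difference was -0.18 (SE 0.029, limma adjusted p = 5.82e-05), and -0.11 with median-ratio scaling, also called. In the triple combination the call was lost when only the 6 libraries compared were fitted (adjusted p = 0.0506), with the same difference.

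Spi1 (ENSMUSG00000002111, chr2:91082390-91115756, plus strand) stood at 138, 133 and 136 TPM untreated and at 150.0, 151 and 153 TPM with IL-13. With IL-17A it had 140.4, 142 and 136 TPM and with IL-13 and IL-17A 154, 149 and 153 TPM. In both pairs the groups did not overlap, though they lay close. With IL-33 it had 134, 133 and 141 TPM and with IL-33 and IL-13 138, 149 and 139.8 TPM, which overlapped. With IL-33 and IL-17A it had 140.6, 132 and 135 TPM and in the triple combination 145, 145 and 148 TPM, with no overlap.

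The Spi1 mean was 1.12-fold higher with IL-13 than untreated. It rose 1.09-fold with IL-17A on both sides (limma adjusted p = 0.00755) and 1.07-fold with IL-33 and IL-17A (adjusted p = 0.0248), and was 1.05-fold higher with IL-33 (adjusted p = 0.173, not called). The mean difference was 0.09 (SE 0.019, limma adjusted p = 0.000321), and 0.16 with median-ratio scaling, also called. The call with IL-17A was lost with voom on recovered reads (adjusted p = 0.0660), and that in the triple combination in the fit of the compared libraries alone (adjusted p = 0.162) and without its replicate 3 (0.0600) or replicate 2 or 3 of IL-33 with IL-17A (0.118 and 0.0688).

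Runx1 (ENSMUSG00000022952, chr16:92601466-92826149, minus strand) stood at 5.92, 6.76 and 6.57 TPM untreated and at 7.88, 7.92 and 7.38 TPM with IL-13. With IL-17A it had 7.02, 5.84 and 6.26 TPM and with IL-13 and IL-17A 8.08, 7.80 and 7.61 TPM. With IL-33 it had 6.04, 6.39 and 6.07 TPM and with IL-33 and IL-13 7.22, 7.79 and 7.20 TPM. The groups with and without IL-13 were apart in these 3 pairs. With IL-33 and IL-17A it had 6.28, 7.18 and 6.86 TPM and in the triple combination 7.60, 5.90 and 7.49 TPM, and these overlapped through replicate 2 of the latter, the library that stood furthest apart.

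The Runx1 mean was 1.20-fold higher with IL-13 than untreated. It rose 1.23-fold with IL-17A on both sides (limma adjusted p = 0.0157) and 1.20-fold with IL-33 (adjusted p = 0.0406), and was 1.03-fold higher with both (adjusted p = 0.772). The mean difference was 0.18 (SE 0.045, limma adjusted p = 0.00351). The call with IL-33 was lost when any 1 of the 6 libraries compared, or IL-13 with IL-17A replicate 2, was left out (adjusted p = 0.05001 to 0.138), and that with IL-17A without IL-17A replicate 2 or IL-13 with IL-17A replicate 1 (0.0833 and 0.0593). With median-ratio scaling Runx1 was called with both as well, at 0.13 (adjusted p = 0.0462).

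**Figure D3:**
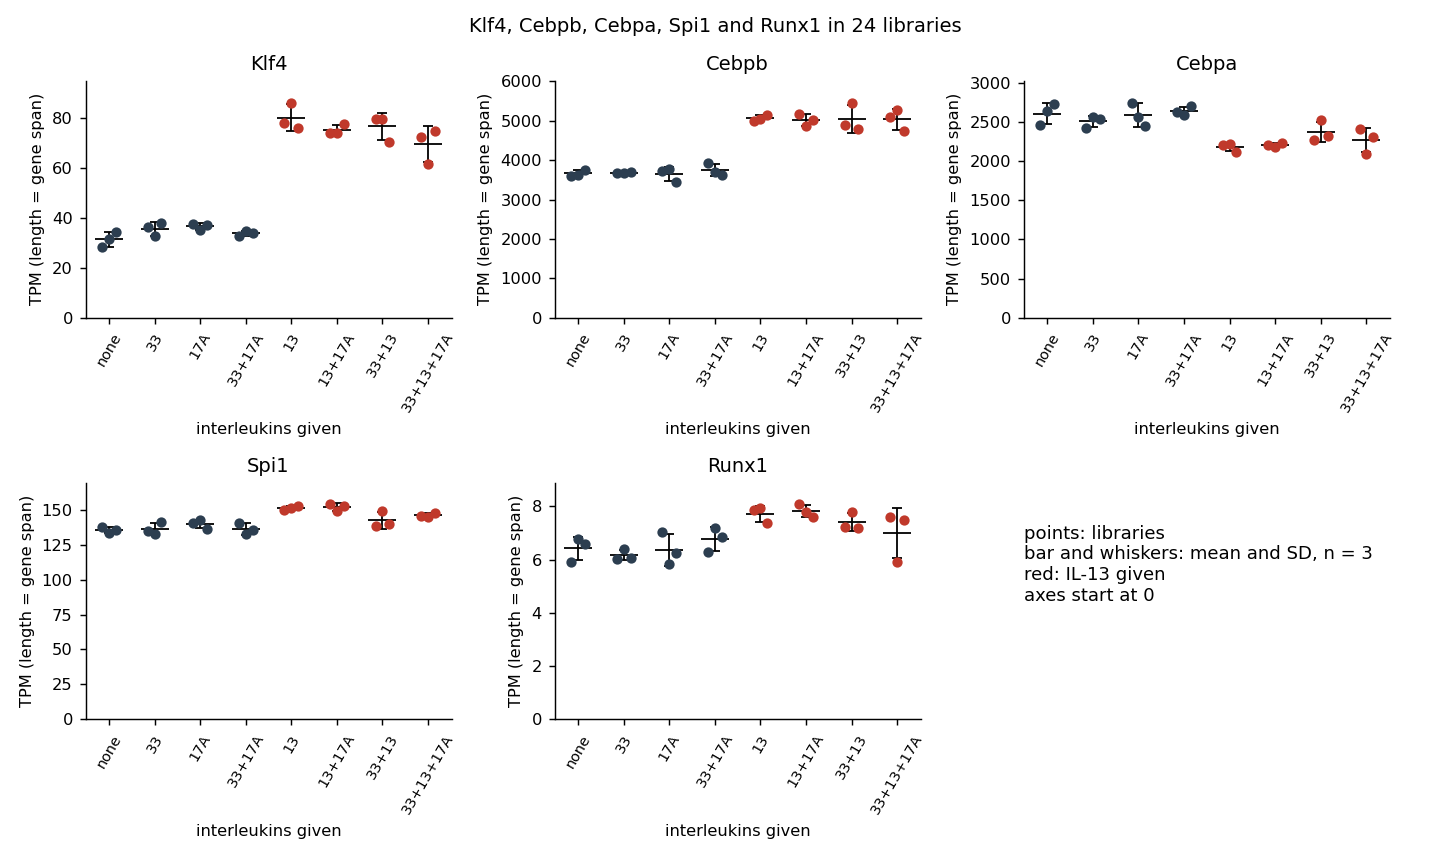
Klf4, Cebpb, Cebpa, Spi1 and Runx1 in TPM (vertical axes, each from 0) in the 8 groups (horizontal axes, the interleukins given), 1 point per library, with mean and SD (n = 3) and groups with IL-13 in red. Klf4 lies between 61.2 and 86.0 TPM in the 12 libraries with IL-13 and between 28.4 and 38.0 TPM in the 12 without, while the red and dark points of Cebpa, Spi1 and Runx1 lie close together or overlap.

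IL-33 and IL-17A were added on 4 backgrounds each, and in none of these 8 comparisons was any of the 5 other factors called. Their 40 differences lay between -0.15 and 0.22 on the log2(TPM + 1) scale, with 95% bounds from -0.31 to 0.38. The smallest limma adjusted p was 0.227, for Spi1 when IL-33 was added to IL-13 (-0.09), and 4 of the 40 had an unadjusted p under 0.05. Klf4 held the widest range, from -0.14 to 0.22, and Cebpb the narrowest, from -0.01 to 0.04.

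The background in these comparisons was low as well. With limma, IL-33 called 0.0% of genes against untreated cells (484 at an unadjusted p under 0.05), 0.00757% beside IL-17A, 2.57% beside IL-13 and 3.55% beside IL-13 and IL-17A. IL-17A called 0.0% against untreated cells, 0.0% beside IL-13, 0.0% beside IL-33 and 0.0% beside IL-33 and IL-13, with 469, 373, 497 and 826 genes at an unadjusted p under 0.05, and voom on recovered reads called 0 in each. Of the interactions, that of IL-13 with IL-33 called 1.17%, none of the 5 among them, and that of IL-13 with IL-17A 0.0% (372 at an unadjusted p under 0.05, and 0 with voom). The interaction of IL-13 and IL-33 with IL-17A present called 1.51%, where the 5 ranged from -0.23 for Runx1 (limma adjusted p = 0.425) to 0.0057 for Cebpa (adjusted p = 0.976).

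Levels were compared between the factors only per length, as recovered reads per kilobase of exon and per M recovered reads of the library. In untreated cells Cebpb stood highest at 357 ± 12.1, then Cebpa at 254 ± 4.46 and Spi1 at 164 ± 9.73. Runx1 (11.7 ± 0.342), Lyl1 (8.43 ± 0.731) and Klf4 (5.33 ± 0.309) were lower, and no neighbours in this order overlapped. With IL-13 the level of Lyl1 was 1.20 ± 0.044, the lowest of the 6, while Klf4 at 13.5 ± 0.805 and Runx1 at 13.96 ± 0.435 did not differ beyond their spread. Reads in introns, if they were counted, are in these values and would weigh most on Runx1, whose span is 224684 bases for 12025 bases of exon.

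Genes on the opposite strand bear on 4 of the 6, since the handling of strand in the authors' counting is not given in the sources used here. Lyl1 lies inside the span of Nfix, with 4 of its 1800 exon bases shared. Exon bases are those of the GENCODE annotation, where Lyl1 runs from 84701457 to 84704715, a shorter span than the deposited one. Nfix was at 1.02 ± 0.0693 TPM untreated and 1.25 ± 0.11 TPM with IL-13, and its mean difference over the 3 backgrounds was 0.14 (limma adjusted p = 0.0571), the other direction from Lyl1. Cebpb shares 312 of 1504 exon bases with Tmem189. In the mean over the 3 backgrounds Tmem189 fell by 0.58 (SE 0.018, limma adjusted p = 3.36e-15). Its level was 112 ± 4.66 TPM untreated and 76.2 ± 1.47 TPM with IL-13 alone. The value of Cebpb is uncertain to the extent of the shared bases. Cebpa shares 51 of 2636 exon bases with the antisense gene Gm45091 and Runx1 106 of 12025 with Gm26626, and no part of these genes in the values was tested.

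The gene lists from here on were drawn up with earlier results of these data known. Their shares beside all tested genes thus describe the lists and are no independent test. The partners of LYL1 were listed with its relatives, 18 genes of which 9 were tested. In the mean IL-13 difference 5 of the 9 fell, none rose and 4 were not called, beside 28.3% of all tested genes lower and 17.4% higher, with a median of -0.13 where that of all tested genes was -0.05. Lmo2, the bridging partner of LYL1 and TAL1, fell from 21.2 ± 1.08 TPM in the 9 libraries without IL-13 to 14.8 ± 1.15 TPM in the 9 with it (-0.49, SE 0.038, limma adjusted p = 2.62e-09), with no overlap. Ldb1, which holds such complexes together, fell from 38.7 ± 2.07 to 34.0 ± 1.37 TPM (-0.18, limma adjusted p = 0.000106). Tal2, a relative of Lyl1, fell from 1.70 ± 0.578 to 0.605 ± 0.321 TPM, and the ETS factor gene Fli1 from 3.68 ± 0.222 to 2.88 ± 0.204 TPM. The E protein genes Tcf3 and Tcf12 were not called, at 23.3 ± 1.55 and 21.5 ± 2.50 TPM for Tcf3. Tal1 itself, Gata1 and Gata2 were not among the genes tested.

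The Id and Hes families encode factors that block or counter basic helix-loop-helix pairs. Of 5 tested, 3 fell and 1 rose (median -0.20), again beside 28.3% lower and 17.4% higher among all genes. Hey1, a target of Notch signalling, fell from 14.3 ± 1.53 to 4.85 ± 0.849 TPM (-1.40, SE 0.085, limma adjusted p = 7.11e-11) and Id3 from 547 ± 28.3 to 396 ± 15.5 TPM (-0.47, adjusted p = 4.04e-11), both with no overlap. Hes6 fell from 222 ± 7.37 to 194 ± 11.7 TPM. Id1 rose from 72.9 ± 9.82 to 99.7 ± 8.97 TPM (0.45, limma adjusted p = 0.000106), while Id2 stood at 1888 ± 32.1 and 1915 ± 109 TPM.

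The relatives of the other 5 factors moved in both directions, and the counts in each family stand beside the same 28.3% lower and 17.4% higher of all tested genes. In the C/EBP family of 7, Cebpb and Ddit3 rose and Cebpd, Cebpa and Cebpg fell. Cebpd, an acute-phase member, went from 54.2 ± 5.94 to 36.7 ± 3.66 TPM (-0.55, SE 0.066, limma adjusted p = 1.12e-06) and Ddit3, the stress-induced CHOP, from 44.8 ± 4.35 to 58.7 ± 6.89 TPM (0.38, adjusted p = 1.59e-06). Of 13 ETS genes 3 rose, Spi1 among them, and 5 fell, with a median of -0.02 that turned to 0.04 under median-ratio scaling. Fli1 is counted both here and in the list of LYL1 partners. Elk3 was among those that fell, at 9.12 ± 0.539 and 6.88 ± 0.501 TPM (-0.36, limma adjusted p = 3.21e-08). Of the RUNX genes and their partner Cbfb, Runx1 alone was called of 3 tested, and Cbfb stood at 24.8 ± 1.63 and 25.7 ± 1.55 TPM.

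Of 11 Kruppel-like factors 4 rose and 4 fell (median -0.12), where 17.4% of all tested genes rose and 28.3% fell. Klf4 held the largest difference. Klf10 rose from 43.0 ± 4.17 to 63.5 ± 6.75 TPM (0.55, SE 0.051, limma adjusted p = 3.65e-08) and Klf9 from 19.5 ± 1.24 to 27.8 ± 3.70 TPM (0.48, adjusted p = 6.44e-07). Klf11 fell from 11.4 ± 1.28 to 7.06 ± 0.947 TPM (-0.62, limma adjusted p = 6.25e-07) and Klf6 from 338 ± 16.8 to 278 ± 23.98 TPM (-0.28, adjusted p = 3.59e-05).

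Among 25 further macrophage lineage factors 13 rose and 6 fell (median 0.23), where 17.4% of all tested genes rose and 28.3% fell. As this list too was chosen with earlier results known, the share describes it only. Irf4, a factor that type 2 cytokines induce in macrophages, rose from 2.97 ± 0.405 to 34.8 ± 4.11 TPM (3.17, SE 0.071, limma adjusted p = 2.35e-17). Pparg, which maintains alveolar macrophages, rose from 7.99 ± 0.408 to 21.8 ± 0.711 TPM (1.35, adjusted p = 5.74e-18). Tfec, a relative of MITF, and Nfil3, a basic leucine zipper factor, rose by 1.48 (SE 0.043) and 1.36 (SE 0.042). Irf8, a partner of PU.1, went the other way, from 109.6 ± 3.39 to 61.2 ± 3.95 TPM (-0.83, SE 0.031, limma adjusted p = 5.25e-14), with no overlap.

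Of 13 textbook target genes of PU.1 and C/EBP, 9 fell and 3 rose (median -0.16), beside 28.3% and 17.4% of all tested genes, while Spi1 and Cebpb were higher and Cebpa lower. Cd14, the coreceptor for endotoxin, fell from 1549 ± 57.7 to 638 ± 30.1 TPM (-1.28, SE 0.022, limma adjusted p = 5.03e-19) and Csf3r, the G-CSF receptor, from 6.18 ± 1.05 to 2.13 ± 0.518 TPM (-1.20, adjusted p = 9.65e-10). Csf3r is also in the granulocyte list above. Fcgr3, an IgG receptor gene, fell by 0.36 and the lysosomal marker Cd68 by 0.22. The 3 that rose were Tlr4, the endotoxin receptor, from 6.96 ± 0.591 to 11.2 ± 1.44 TPM (0.61, limma adjusted p = 2.04e-07), the scavenger receptor gene Msr1 (0.20) and the M-CSF receptor gene Csf1r (0.14). By background, the Csf1r difference was 0.39 with IL-17A, 0.02 with IL-33 and 0.0057 with both. That of Msr1 was 0.40, 0.14 and 0.04 in the same order.

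**Figure D4:**
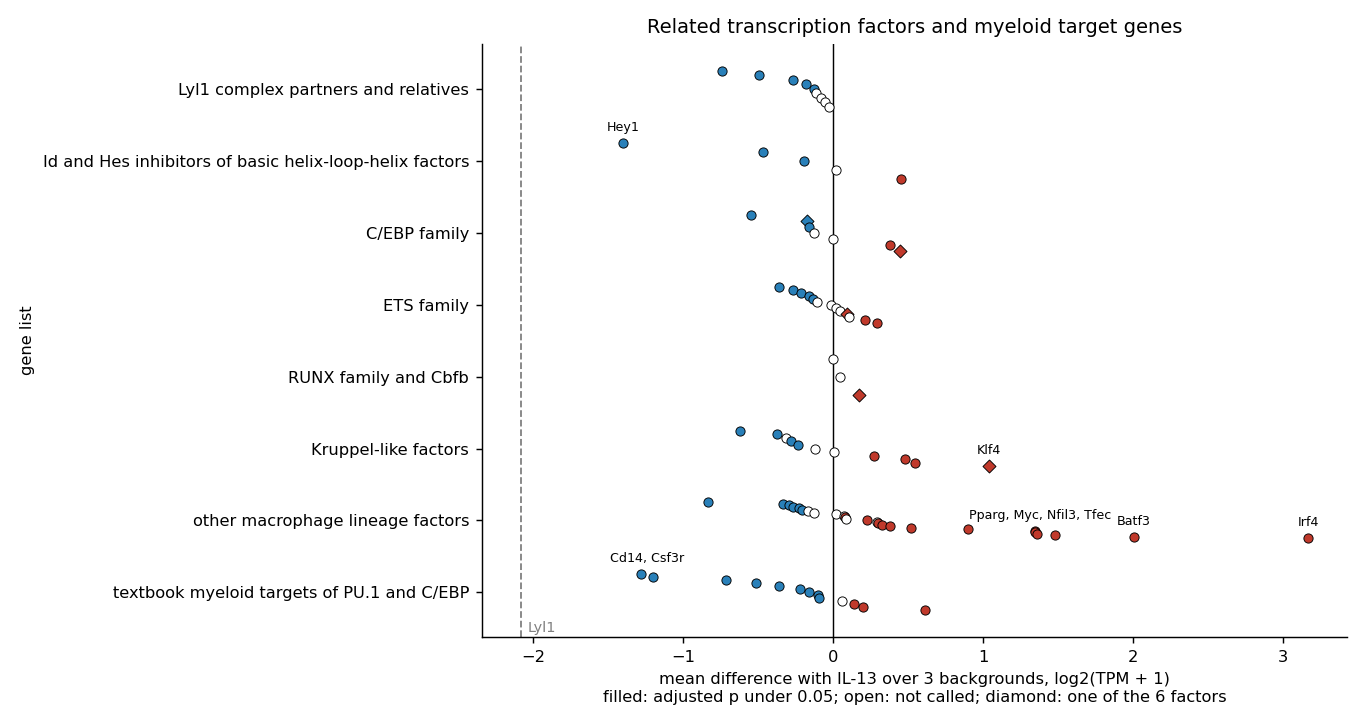
Mean difference with IL-13 over 3 backgrounds on the log2(TPM + 1) scale (horizontal axis) for the tested genes of 8 lists (rows), filled where called (red higher, blue lower), open where not, with diamonds for the factors among the 6 and a dashed line at the Lyl1 value of -2.08. The partners of LYL1 all lie left of 0 and none is lower than -0.74, while Irf4 lies furthest right at 3.17.

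The genes whose pattern over the 8 group means came closest to each factor were found by the root mean square distance between centred log2(TPM + 1) means, over 24 libraries and 8150 genes that reached a mean of 5 TPM in some group. Nearest to Lyl1 were Cdkn1c (0.15), which encodes a cyclin-dependent kinase inhibitor, Cdo1 (0.22), which encodes cysteine dioxygenase, Sema4d (0.25), the chemokine gene Cxcl16 (0.25) and Zmynd15 (0.26). Cdkn1c stood at 74.2 ± 16.9 TPM untreated, 14.4 ± 4.13 with IL-13, 15.7 ± 1.72 with IL-13 and IL-17A, 22.1 ± 2.26 with IL-33 and IL-13 and 23.5 ± 5.78 in the triple combination. Like Lyl1, its means with both IL-33 and IL-13 lay above those with IL-13 and no IL-33. That likeness is no separate result, since the gene was picked for its closeness to Lyl1 over these same group means. Cxcl16 kept closer to 1 level across the IL-13 groups, at 58.4 ± 2.40, 59.1 ± 1.47, 65.1 ± 0.991 and 63.2 ± 4.21 TPM, from 231 ± 11.6 untreated.

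Among the genes near Klf4 were Psat1 (0.063), of serine synthesis, and Ms4a7 (0.063). Nearest to Cebpb were Snd1, Cd151 and Nup62 (0.019 to 0.023), and to Cebpa Sppl3, Axl and Atp6v1d (0.011 to 0.019). Spi1 was closest to Hsd17b12, Mrps14 and Ppid (0.012 to 0.016) and Runx1 to Slc12a7, Eloa and Ide (0.014 to 0.023). The small distances of these 4 factors go with their small differences between groups.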

How the data were processed

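RNA of 24 libraries was extracted with the RNeasy micro plus kit and sequenced on an Illumina NovaSeq, per the labels' protocols. The authors deposited 1 table of TPM values per library; the submitters' processing notes name STAR and the build mm10. The STAR version, the counter and its use of strand are not given in these sources. Per the file headers, each gene has a length beside its TPM, and that length equalled the gene's span for all 17017 genes. TPM times length, divided by 1 constant per library, gave whole reads (within 0.05) in 89.9% to 91.4% of the values below about 20 reads, where 10% would be whole by chance; these recovered reads give the depth and the voom alternative.

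Groups were taken from the treatment labels. The test was limma-trend (limma 3.58.1, R 4.3.3) on log2(TPM + 1), for genes that reached 1 TPM in 3 or more libraries, with 8 group means, no covariates and 16 residual degrees of freedom. Fold changes on this scale understate those of low genes, while ratios in the text are of mean TPM. P-values were adjusted by Benjamini and Hochberg over the 13215 genes of each of 16 comparisons, and 0.05 was the limit for a call. On simulated data with 200 of 13215 genes changed, the comparison of IL-13 and IL-17A with IL-17A recovered 97% of 2-fold and 85% of 1.41-fold changes with 14 false calls. The changed genes were drawn from those with higher levels, and the simulated noise held no library effect. Recovery among genes low in TPM was not measured. Runx1 is one by its TPM, though not by its reads (median 1636 in a library, beside 74.0 for Lyl1).

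The members and gene lists were chosen with earlier results of these data known. The plan had tests for Lyl1 in the comparisons that add IL-33 or IL-17A and in the interactions; after the values were seen these were given with no p, since the gene was chosen on the same 8 groups. From each list, up to 4 genes with the smallest p in the mean IL-13 difference are named, with a few further genes chosen after their values were seen (Tcf3, Tcf12, Id2, Irf8, Tlr4, Msr1, Csf1r). Alternatives were other pseudocounts (0.1 and 0.5), filters (none and 5 TPM), median-ratio scaling, voom, fits of the compared groups alone and leaving out each library; leaving out 3 libraries together was added after the data were seen. Coordinates are mm10, 1-based. Exon lengths and shared exon bases were taken from the GENCODE annotation, and the gene model behind the deposited values may differ from it, as for Lyl1. A gene that the rule for similar patterns also named is not reported here.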

Additional observations from a re-analysis of the deposited data

How the results depend on the processing

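Over 96 differences of the 6 factors and 32 alternative settings, 3042 of 3072 values kept their side of the threshold, or moved by less than the standard error where no test is given. None of the called differences reversed, and 105 of the 3072 values, all not called or not tested, changed sign. When only the groups compared were fitted, the factors called fell from 4 to 2 of the 5 tested for IL-13 added to IL-33 and IL-17A and the genes called from 4321 to 1847, and for IL-33 added to IL-13 and IL-17A the genes called fell from 469 to 49; such a fit has fewer samples. The same setting gave 144 genes in place of 340 for IL-33 added to IL-13, and 65 in place of 200 for the interaction of IL-13 and IL-33 with IL-17A present. It gave 3 in place of 0 for IL-33, 5 in place of 0 for IL-17A, 6 in place of 0 for IL-17A added to IL-33 and 5 in place of 1 for IL-33 added to IL-17A. That last count was 0 at 5 TPM, with median-ratio scaling, with voom and without the 3 libraries that stand apart.

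Without those 3 libraries the interaction with IL-17A present called 116 genes. Leaving out 1 library in turn gave 105 to 237 genes for that interaction, 212 to 418 genes for IL-33 added to IL-13, 286 to 666 for IL-33 added to IL-13 and IL-17A and 0 to 2 for IL-33 added to IL-17A. The cause of these differences was not tested. The Runx1 call with IL-33 was lost with no filter (limma adjusted p = 0.0542). Under median-ratio scaling 2 of 3 RUNX genes were called higher in place of 1, and 6 of 13 myeloid targets lower in place of 9. Of the partners and relatives of LYL1, 4 of 9 were lower under median-ratio scaling and in the fit of the groups compared, in place of 5. That count was 2 of 4 at 5 TPM and 6 of 12 with no filter.

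No paired analysis was possible because the labels give no numbers shared across groups. With 20 to 44 reads of Lyl1 in a library with IL-13, counting error limits the precision of its differences among those groups.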
